A study of Mus musculus with 9 samples.

Results

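The 10 genes examined here encode subunits of AP-1 or close relatives that pair with them: *Fos*, *Fosb*, *Fosl1* and *Fosl2* of the FOS subfamily, *Jun*, *Junb* and *Jund* of the JUN subfamily, and *Atf3*, *Maff* and *Batf*. They were chosen by gene symbol, as members of this transcription factor family, with earlier results of these data known. Counts of members set beside the share of all genes are therefore a description and not a test. All 10 were found among the 50559 genes listed in each library. All 10 were also among the 16618 genes that passed a filter on low counts and were tested. RNA-Seq had been done on CD45+CD11b+ myeloid cells sorted from quadriceps muscles of 4.5-week-old *mdx* mice, which lack dystrophin and model Duchenne muscular dystrophy. Mice received vehicle, the mineralocorticoid receptor antagonist spironolactone or the glucocorticoid prednisolone for 7 days in drinking water. All groups carried the *mdx* allele, so no healthy muscle was compared. Each group had 3 libraries, and each library held cells pooled from 3 mice, so that a replicate is a pool. Males and females were used in every group, and the sex of the mice in each pool is not given in the sources used here. Pools differed in sex-linked RNA, with *Xist* from 65.3 CPM in spironolactone replicate 3 to 712 in spironolactone replicate 1 and *Ddx3y* from 6.61 in spironolactone replicate 1 to 32.9 in spironolactone replicate 3. In vehicle replicate 3 *Ddx3y* was at 6.7 CPM, and the part of sex in the AP-1 values was not tested. The gate does not separate macrophages, monocytes and neutrophils, and live cells were not separated from dead ones.

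AP-1 is a dimer whose subunits grip DNA through a basic region next to a leucine zipper. JUN proteins can pair with each other or with FOS proteins, whereas FOS proteins need a JUN partner. Many of these genes are immediate early genes, transcribed within minutes of a stimulus through MAP kinases and serum response factor (SRF) and soon silenced. In macrophages AP-1 cooperates with NF-κB at genes of cytokines, chemokines and proteases, and the ligand-bound glucocorticoid receptor is known for repressing AP-1 activity through protein contact. Stress of tissue digestion and sorting is also known to induce *Fos* and *Jun*.

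Libraries held between 31469815 and 32943512 counts on genes. Levels are given as CPM, the share of a library's normalized total count on tested genes that fell on a gene. Genes were tested with edgeR's quasi-likelihood test with all 9 libraries in one fit, two-sided, and a gene was called where its Benjamini-Hochberg adjusted *P* over all genes tested was under 0.05. Changes are log2 fold changes ± SE. In bulk RNA, fewer cells that express a gene and less RNA in each cell cannot be told apart. All 8 macrophage markers (*Adgre1*, *Csf1r*, *Cd68*, *C1qa*, *C1qb*, *Mertk*, *Mrc1* and *Fcgr1*) were detected in every library, with summed levels of 7674 to 10061.9 CPM. The 6 neutrophil markers summed to 635 to 2816 CPM in vehicle, the widest range of any group. The sum in vehicle replicate 3 was the highest of the 9 libraries.

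The sequences upstream of *Fos*, *Fosb* and *Jun* are shown because these genes are the classical immediate early members and hold a known type of control element there. Windows of 500 bases before to 50 bases after the start of the canonical GENCODE transcript were searched on GRCm39, the build of the deposited counts. In *Fos* and *Fosb* the capitals mark a CArG box, the element that SRF binds. In *Jun* they mark TGACATCA, a variant of the AP-1 element. All 3 stretches lie upstream of the transcript start and outside exons of the gene, and the *Jun* stretch lies inside the divergent noncoding gene *Junos*. Their positions are chr12:85520319-85520400 (+ strand) for *Fos*, chr7:19044197-19044278 (- strand) for *Fosb* and chr4:94940461-94940540 (- strand) for *Jun*.
Fos: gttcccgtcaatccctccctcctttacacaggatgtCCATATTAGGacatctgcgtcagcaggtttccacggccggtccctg
Fosb: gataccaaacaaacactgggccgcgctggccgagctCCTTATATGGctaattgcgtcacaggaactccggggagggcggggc
Jun: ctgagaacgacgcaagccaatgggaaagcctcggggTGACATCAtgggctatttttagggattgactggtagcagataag

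The box of *Fos* begins 303 bases before the start and that of *Fosb* 266 bases before it. Of the 12 bases that follow the box, 8 are identical between the genes, and the last 7 of them form an identical run. Of 21751 promoters of protein-coding genes searched, 631 (2.9%) hold a CArG box on either strand, and 2 of these 631 (*Fos* and *Fosb*) have that same run within 12 bases after it, a feature noticed after the sequences were read. TGACATCA begins 45 bases before the start of *Jun*, and 4.2% of promoters hold it on either strand. TGACGTCA, the cAMP response element, was found for *Jund* and *Maff* and in 2.71% of promoters. The AP-1 element TGAGTCA or TGACTCA was found in 0 of the 10 windows and in 8.21% of all promoters. The glucocorticoid receptor half-site AGAACA was found on either strand in 1 of the 10 windows, that of *Fos*, and in 31.3% of promoters. These letters describe the windows only, and no match was tested as a binding site.

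Per length, AP-1 transcripts of vehicle-treated *mdx* myeloid cells were mostly *Junb* and *Fos*. Levels of different genes are compared as TPM, counts divided by GENCODE exon length and scaled to one total in each library. In vehicle, *Junb* had 4856 ± 177 TPM (SD, n = 3), *Fos* 2843 ± 345, *Jun* 1813 ± 397, *Jund* 1528 ± 65.6 and *Atf3* 1229 ± 119. *Fosb* followed at 392 ± 96.3 TPM and *Fosl2* at 185 ± 15.5, then *Batf* at 64.5 ± 5.54 and *Maff* at 41.2 ± 5.06. *Fosl1* was lowest at 3.05 ± 0.71 TPM, from 36 to 59 counts in a vehicle library. The vehicle ranges of *Jun* (1514 to 2263 TPM) and *Jund* (1459 to 1590.2) overlapped, whereas *Junb*, at 4681 TPM or more, lay above every other member.

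The JUN subfamily made up 63.3% ± 1.41 of their summed TPM in vehicle (SD, n = 3), 67.2% ± 3.74 with spironolactone and 63.0% ± 0.94 with prednisolone. The FOS subfamily made up 26.3% ± 1.42, 23.3% ± 2.89 and 28.8% ± 0.58, respectively. Summed over the 10 genes, vehicle libraries had 12953 ± 1003 TPM, those of spironolactone 10319 ± 416 and those of prednisolone 8498 ± 1535. The highest spironolactone library (10778 TPM) and the highest prednisolone library (9804) both lay below the lowest vehicle library (12237). The order of the genes by group mean was the same in the 3 groups except that *Jund* (1202 ± 214 TPM) stood above *Jun* (915 ± 190) with prednisolone. By library, *Jund* was also above *Jun* in spironolactone replicates 2 (1453 and 1395 TPM) and 3 (1497 and 1422 TPM). In spironolactone replicate 1 it was below *Jun* (1272 and 1814 TPM).

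**Figure D1:**
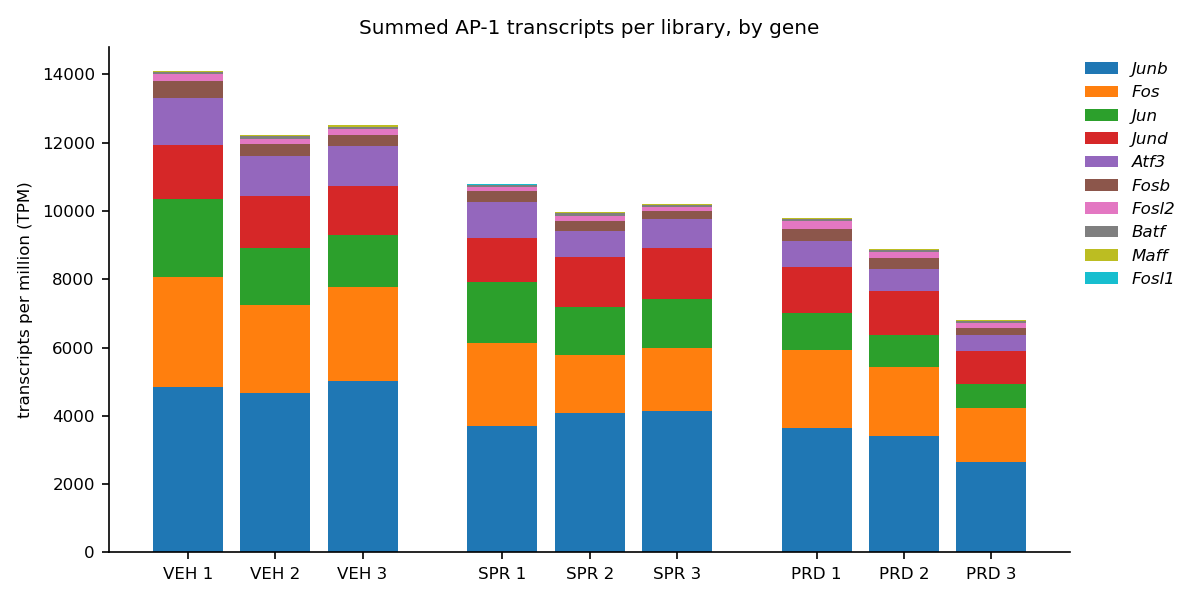
Stacked bars give the TPM of each AP-1 gene in each of the 9 libraries (VEH, vehicle; SPR, spironolactone; PRD, prednisolone). The bars of vehicle libraries reach 12237 TPM or more and those of both drugs stay at 10778 or less, with *Junb* and *Fos* as the largest parts of each bar.

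Prednisolone against vehicle asks how a glucocorticoid alters these genes in myeloid cells of dystrophic muscle. *Jun*, *Junb* and *Atf3* fell with prednisolone. These 3 of 10 members were called lower and 0 higher, against 0.758% of all genes tested called lower and 1.76% called in either direction. At an unadjusted edgeR *P* under 0.05 there were 7 of 10, against 14.2% of all genes tested. All 3 prednisolone libraries lay below all vehicle libraries for 7 of the 10 members, against 9.27% of all genes tested. The median log2 fold change of the 10 was -0.54, beside -0.014 for all genes tested. Several members varied together over the 9 libraries (Pearson's r of log2 CPM 0.964 for *Jun* and *Atf3*), and others did not (-0.033 for *Fos* and *Batf*). The members are thus not independent of each other.

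*Jun* (chromosome 4, 94937271 to 94940459, - strand) encodes the founding JUN protein, a strong transactivator and the main partner of FOS. Its level was 1543, 1229 and 1132 CPM in vehicle replicates 1 to 3, 1259.6, 1026 and 1067 in spironolactone, and 762, 623 and 486 in prednisolone libraries. Every prednisolone library was below every library of the other groups, whereas spironolactone and vehicle overlapped. With prednisolone the log2 fold change was -1.06 ± 0.16 (edgeR adjusted *P* = 0.00661), a level 0.479 times that of vehicle. *Jun* was called under all 10 alternatives of tool, normalization, filter or block, and it stayed called whichever of the 9 libraries was removed (edgeR adjusted *P* from 0.00503 to 0.0495).

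*Atf3* (chromosome 1, 190902493 to 190950241, - strand) encodes a stress-induced partner that represses inflammatory genes in macrophages. It had 712, 666 and 656 CPM in vehicle, 567, 445 and 481 in spironolactone, and 404, 318 and 244 in prednisolone replicates 1 to 3. No group overlapped another, with vehicle highest and prednisolone lowest. The change with prednisolone was -1.07 ± 0.15 (edgeR adjusted *P* = 0.00455), and the call held under the same 10 alternatives and without any 1 of the 9 libraries.

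*Junb* (chromosome 8, 85701113 to 85705359, - strand), whose product is a weaker transactivator than JUN, had 2471, 2586 and 2809 CPM in vehicle libraries. It had 1913, 2244 and 2317 CPM in spironolactone and 1888, 1692 and 1343 in prednisolone libraries. The groups again did not overlap, although spironolactone replicate 1 was close to prednisolone replicate 1. The change with prednisolone was -0.68 ± 0.13 (edgeR adjusted *P* = 0.0169). The call was lost in the fits without prednisolone replicate 2 or 3 or vehicle replicate 2 or 3 (edgeR adjusted *P* = 0.096, 0.0674, 0.0522 and 0.0628). *Junb* overlaps *Prdx2*, *Jun* overlaps *Junos* and *Fosl1* overlaps *Ccdc85b* on the opposite strand, and *Fosl2*, *Jund*, *Atf3* and *Maff* overlap noncoding genes there. Whether reads were counted by strand is not given in the sources used here, so the counts of these 7 members cannot be fully assigned.

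*Fos* (chromosome 12, 85520658 to 85524047, + strand) encodes the prototype FOS protein, which binds DNA only with a partner. Vehicle libraries had 1628, 1402 and 1513 CPM, spironolactone libraries 1248, 929 and 1034, and prednisolone libraries 1181, 1003 and 788. None of the 6 libraries of treated mice reached the vehicle range, and the ranges of the drugs overlapped. With prednisolone the change of -0.61 ± 0.15 did not pass (edgeR adjusted *P* = 0.0518). It was called in 4 of the 10 alternatives and when replicate 1 of prednisolone or of spironolactone was removed (edgeR adjusted *P* = 0.0355 and 0.0354).

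*Jund*, the JUN member usually present in resting cells, had 567 to 593 CPM in vehicle, 462 to 587 in spironolactone and 338 to 489 in prednisolone libraries. *Maff*, a small MAF protein without a transactivation domain, had 24.5 to 34.4, 16.2 to 22.8 and 12.7 to 23.4 CPM in the same order. Both had all prednisolone libraries below vehicle, with changes of -0.43 ± 0.13 for *Jund* and -0.75 ± 0.21 for *Maff* (edgeR adjusted *P* = 0.126 and 0.116). DESeq2 on all 9 libraries called both (adjusted *P* = 0.0409 and 0.0149), as did edgeR without the filter (0.00996 and 2.9e-06), and the fit without prednisolone replicate 1 called *Maff* (edgeR adjusted *P* = 0.0354). All members pass the filter, so that its removal altered their values only through the other genes in the fit. Without it, edgeR called 1019 genes in this comparison, against 293 with it.

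*Batf*, a partner of JUN known from T cells and dendritic cells, had 15.7 to 17.6 CPM with prednisolone and 17.9 to 23.1 in vehicle libraries. These did not overlap, and the change was -0.35 ± 0.19 (edgeR adjusted *P* = 0.456). *Fosb*, a close relative of *Fos*, had 487 to 672 CPM in vehicle and 273 to 498 in prednisolone libraries, and these ranges overlapped. Its change was -0.47 ± 0.20 (edgeR adjusted *P* = 0.326, and 0.00328 without the filter). The counts are per gene, so the short and the full-length form of *Fosb* were not separated.

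*Fosl2*, which encodes FRA-2, and *Fosl1*, which encodes FRA-1, are later FOS members without the transactivation domain of FOS. *Fosl2* had 448, 412 and 444 CPM in vehicle and 516, 408 and 328 in prednisolone libraries, with a change of -0.060 ± 0.16 (95% interval -0.41 to 0.29). Prednisolone replicate 1 was above and replicates 2 and 3 below the vehicle range. *Fosl1* had 0.948 to 2.13 CPM in the 9 libraries, and its change of 0.065 ± 0.36 (95% interval -0.71 to 0.84) leaves both directions possible.

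**Figure D2:**
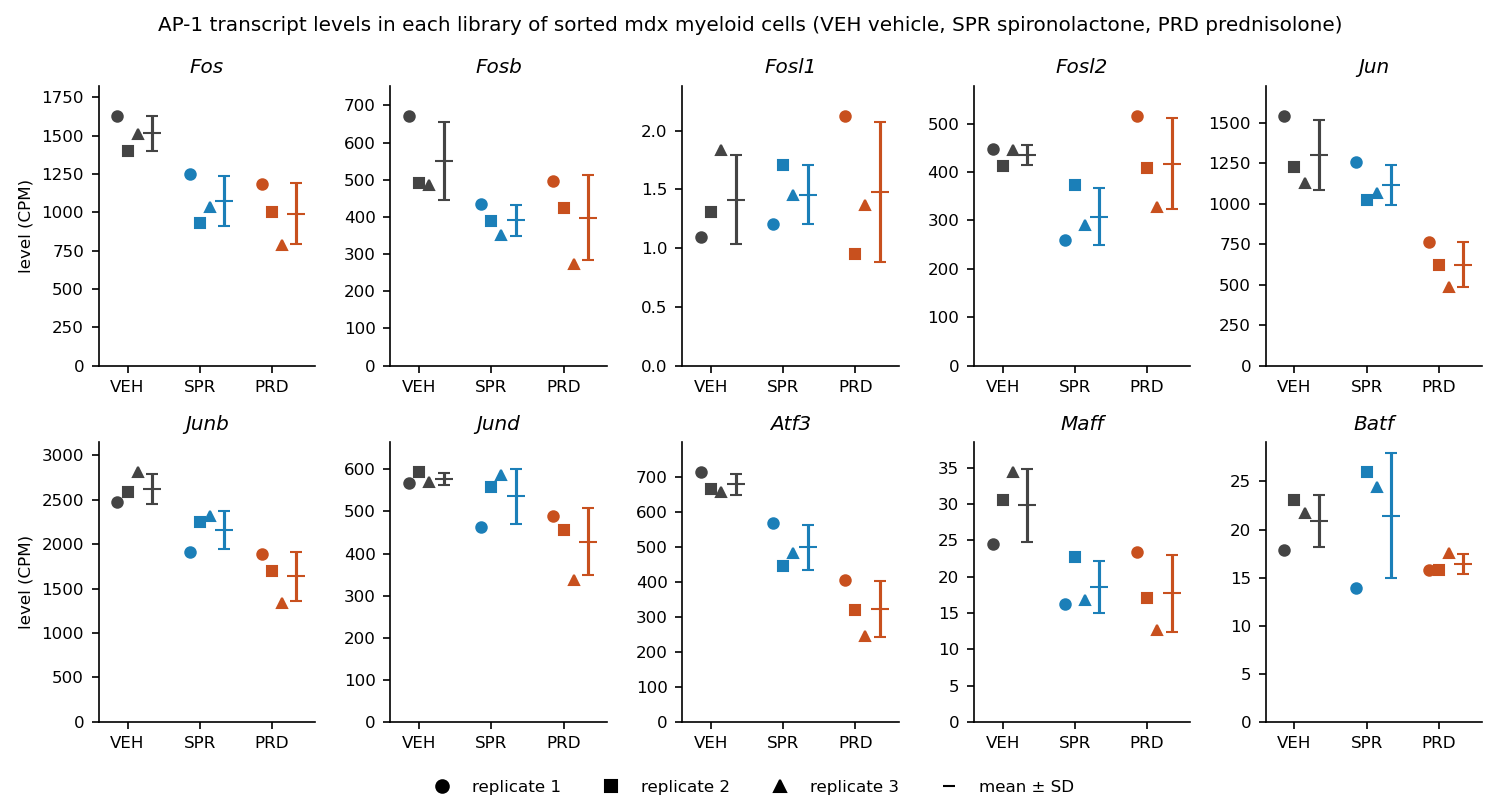
Points give the level of each gene in CPM in each library (marker shape, replicate), and bars give the mean ± SD of 3 libraries. For *Jun*, prednisolone libraries (486 to 762 CPM) stand apart from both other groups, whereas for *Fosl2* the spironolactone libraries (259.7 to 373) lie below the vehicle libraries (412 to 448) and overlap those of prednisolone (328 to 516).

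Libraries of one group also differed among themselves. Prednisolone replicate 1 was the highest of the 3 for 9 of the 10 members, against 35.2% of all genes tested, and replicate 3 was the lowest for 8 of 10, against 33.7%. *Batf* and *Fosl1* were the members with another order. Spironolactone replicate 1 was the lowest of its group for 6 members, against 37.7% of all genes tested, and the highest for 4. Vehicle replicate 1 was the highest for 5 members and the lowest for the other 5. *Fos*, *Fosb*, *Jun* and *Atf3* were highest in replicate 1 of every group. Mitochondrial genes took 4.25%, 7.11% and 4.08% of the counts in prednisolone replicates 1 to 3. The part of this share in the AP-1 levels was not tested.

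Spironolactone against vehicle asks the same of mineralocorticoid receptor antagonism. None of the 10 members was called by edgeR with the filter on low counts (0 of 10, against 0.0181% of all genes tested called), and 6 had an unadjusted *P* under 0.05, against 9.29% of all genes tested. DESeq2 called *Fos* alone on all 9 libraries (adjusted *P* = 0.0479) and *Fos*, *Fosl2*, *Atf3* and *Maff* on the 2 groups alone, and limma-voom called 0. Without a filter beyond 1 count in total, edgeR called *Fos*, *Fosb*, *Fosl2*, *Atf3* and *Maff* (adjusted *P* from 4.55e-05 to 0.00679), so that the calls rest on the tool and the filter. All spironolactone libraries were below all vehicle libraries for 6 of 10 members (*Fos*, *Fosb*, *Fosl2*, *Junb*, *Atf3* and *Maff*), against 6.5% of all genes tested. The median log2 fold change was -0.36, beside 9.04e-05 for all genes tested.

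*Fosl2* (chromosome 5, 32292707 to 32315186, + strand) had 259.7, 373 and 291 CPM in spironolactone libraries, all below the vehicle libraries. The change was -0.50 ± 0.16 (edgeR adjusted *P* = 0.311). *Fos* had a change of -0.50 ± 0.14 (edgeR adjusted *P* = 0.232), *Atf3* of -0.45 ± 0.15 (edgeR adjusted *P* = 0.356) and *Maff* of -0.68 ± 0.21 (edgeR adjusted *P* = 0.306). *Fosb*, with 351 to 435 CPM in spironolactone libraries, had a change of -0.49 ± 0.20 (edgeR adjusted *P* = 0.491). The JUN genes had smaller values: *Junb* -0.28 ± 0.13, *Jun* -0.22 ± 0.16 and *Jund* -0.11 ± 0.13 (edgeR adjusted *P* = 0.523, 0.731 and 0.875). *Batf* differed by 0.035 ± 0.19 and *Fosl1* by 0.041 ± 0.36. Both comparisons use the same vehicle libraries, so that the lower values with both drugs are not independent of each other.

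Summed marker levels of several other cell types were higher in spironolactone than in vehicle libraries, without overlap. The 6 endothelial markers summed to 165 to 222 CPM with spironolactone and 88.8 to 122 in vehicle, and the 5 erythroid markers to 186 to 305 and 70.2 to 135 CPM. The 6 skeletal muscle markers summed to 340.5 to 568 and 182 to 278 CPM, and the 7 lymphocyte markers to 8.82 to 15.1 and 3.74 to 6.36 CPM. Mitochondrial genes took 6.57% to 7.71% of the counts with spironolactone and 3.63% to 5.43% in vehicle. Counts on lines naming no gene also did not overlap, with 19.94% to 21.8% with spironolactone and 18.9% to 19.82% in vehicle. With prednisolone, the 5 dendritic cell markers (80.6 to 103.6 CPM, 58.2 to 71.6 in vehicle) and the muscle markers (289 to 454 CPM) were above vehicle, and the lymphocyte markers (1.5 to 3.24 CPM) below it. Among the muscle markers, *Mylpf* was at or near 0 in all 9 libraries. The part of these differences in the AP-1 values was not tested.

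The direct comparison of the drugs asks where their effects on AP-1 genes differ. *Jun* and *Atf3* were higher with spironolactone than with prednisolone. These 2 of 10 members were called higher and 0 lower, against 2.38% of all genes tested called higher and 5.17% in either direction. *Jun* differed by 0.84 ± 0.16, a level 1.79 times that of prednisolone (edgeR adjusted *P* = 0.0125), and *Atf3* by 0.63 ± 0.15, 1.54 times (edgeR adjusted *P* = 0.0352). For *Jun*, *Junb* and *Atf3* all spironolactone libraries lay above all prednisolone libraries, against 15.1% of all genes tested, and *Junb* differed by 0.40 ± 0.13 (edgeR adjusted *P* = 0.0849).

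The call of *Jun* was lost without prednisolone replicate 2 (edgeR adjusted *P* = 0.0612). The call of *Atf3* was lost without prednisolone replicate 2 or 3, without each of the spironolactone replicates, and without vehicle replicate 2 (edgeR adjusted *P* from 0.0504 to 0.121). It was also lost with edgeR fitted on these 2 groups alone (0.62, adjusted *P* = 0.0584), the one loss among the 10 alternatives. *Junb* was called as well without vehicle replicate 1 (edgeR adjusted *P* = 0.0457), by DESeq2 on all 9 libraries or on 2 groups (adjusted *P* = 0.0312 and 0.0207) and by edgeR without the filter (adjusted *P* = 0.0168). In the fit without spironolactone replicate 1 *Batf* was called, at 0.62 (edgeR adjusted *P* = 0.021). Between the drugs, the summed macrophage markers (9088 to 10061.9 CPM with spironolactone, 7674 to 8485 with prednisolone) and the summed neutrophil markers (990.5 to 2054 and 761 to 969.7 CPM) did not overlap, nor did the sums of endothelial, erythroid and lymphocyte markers, all higher with spironolactone. Single markers did not all follow their list's sum. Of the macrophage markers, *Cd68*, *C1qb* and *Fcgr1* were higher with spironolactone without overlap and the other 5 overlapped. Among those 5, *C1qa* had a higher mean with spironolactone (874 to 1239 and 650 to 932 CPM). *Mrc1* had a lower mean (384 to 521 and 490.1 to 559 CPM), and *Adgre1*, *Csf1r* and *Mertk* slightly lower ones. Of the neutrophil markers, *S100a8*, *S100a9* and *Retnlg* did not overlap, whereas *Csf3r*, *Cxcr2* and *Mmp8* did. The sum of the monocyte markers (1233 to 1471 and 1598 to 2048 CPM) was lower with spironolactone through *Chil3* (337 to 572.5 and 998.7 to 1259 CPM), whereas *Ly6c2* (223 to 266 and 77.6 to 181 CPM) and *Plac8* (109 to 116 and 30.9 to 85.9 CPM) were higher without overlap. Of the gate genes, *Itgam* was lower with spironolactone (978 to 1170 and 1281 to 1486 CPM) and *Ptprc* overlapped. Their part in these values was not tested.

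*Fosl2* had the opposite sign, with -0.44 ± 0.16 (edgeR adjusted *P* = 0.129). It was called lower with spironolactone by DESeq2 on 2 groups (adjusted *P* = 0.0337) and by edgeR without the filter (adjusted *P* = 0.00175), and 1 library of each drug lay within the range of the other. *Fos* differed between the drugs by 0.11 ± 0.14 (95% interval -0.20 to 0.42) and *Fosb* by -0.023 ± 0.20 (95% interval -0.47 to 0.42). Neither interval holds the 0.84 of *Jun*, but the genes were not tested against each other. *Maff* differed by 0.073 ± 0.21, *Batf* by 0.39 ± 0.19 and *Jund* by 0.33 ± 0.13 (edgeR adjusted *P* = 0.888, 0.263 and 0.157).

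**Figure D3:**
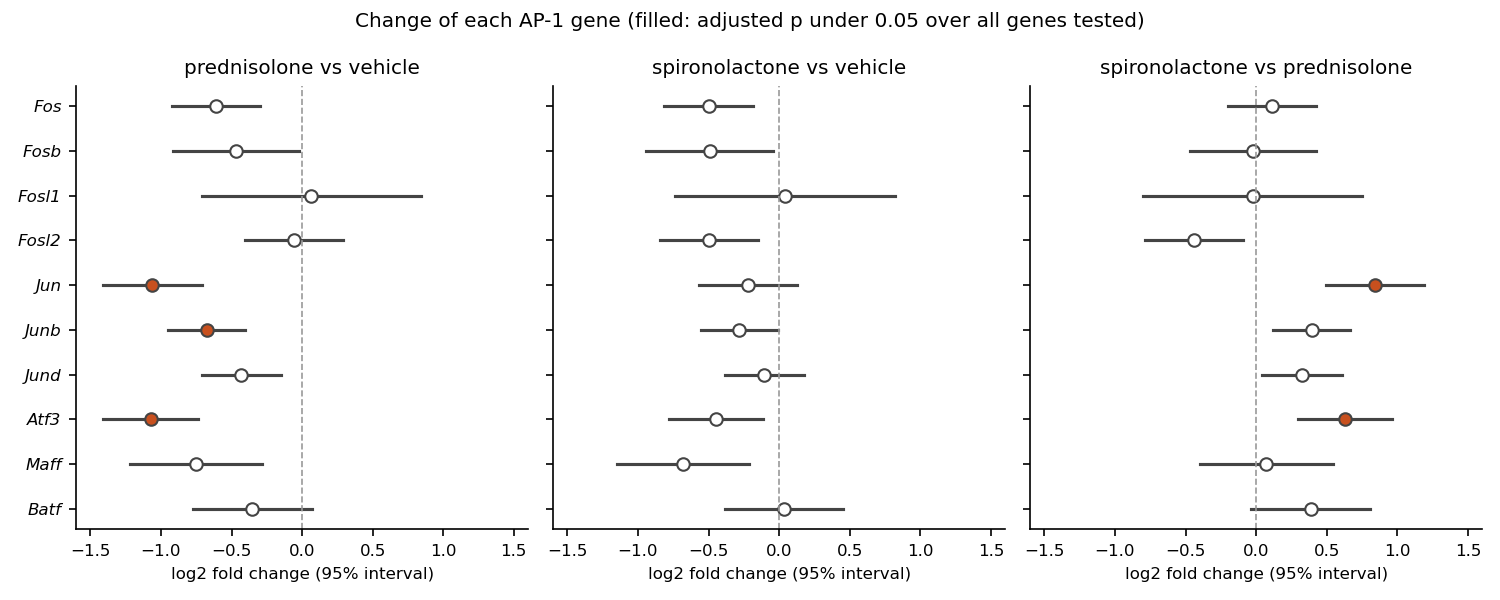
Points give log2 fold changes and lines their 95% intervals for the 10 genes in the 3 comparisons, with filled points for genes called at an adjusted *P* under 0.05 over all genes tested. *Jun*, *Junb* and *Atf3* are filled with prednisolone against vehicle, none with spironolactone against vehicle, and *Jun* and *Atf3* between the drugs.

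Counts of the members were also set against those of *Fos* in the same library, a ratio that does not depend on normalization between libraries. The ratio of *Jun* to *Fos* counts was 0.948, 0.876 and 0.748 in vehicle, 1.01, 1.10 and 1.03 in spironolactone, and 0.645, 0.621 and 0.616 in prednisolone replicates 1 to 3. No group overlapped another, and the prednisolone libraries spanned the narrowest range although their *Fos* levels differed most. The ratio of *Atf3* to *Fos* was 0.433 to 0.475 in vehicle, 0.455 to 0.479 in spironolactone and 0.309 to 0.342 in prednisolone libraries. That of *Fosl2* to *Fos* was 0.275 to 0.294 in vehicle, 0.407 to 0.436 in prednisolone and 0.208 to 0.401 in spironolactone libraries.

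Of the 9 ratios to *Fos*, 3 (*Jun*, *Atf3* and *Fosl2*) did not overlap between prednisolone and vehicle, against 58.1% of all other genes tested, and 6 overlapped. Between spironolactone and vehicle 1 of 9 (*Jun*) did not overlap, against 50.3%. Between the drugs 3 of 9 (*Jun*, *Atf3* and *Fosl2*) did not, against 13%. These counts are a description without a test. The ratios to *Fos* were chosen after the levels had been seen. A ratio shows unequal change and not which gene changed.

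**Figure D4:**
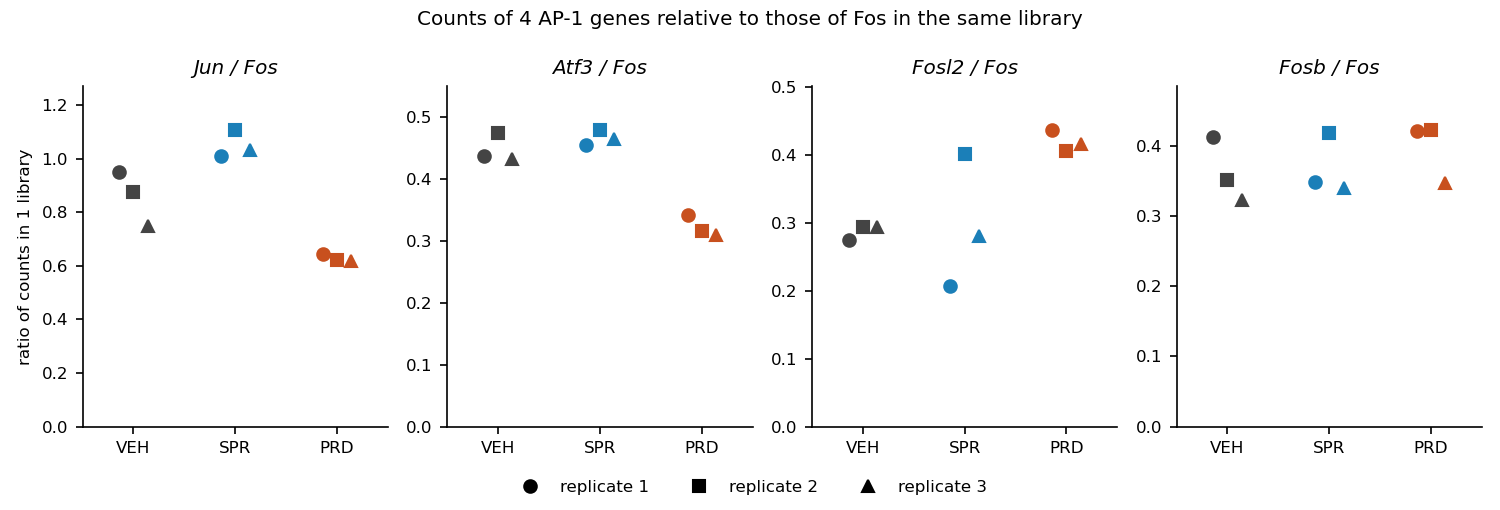
Points give the counts of *Jun*, *Atf3*, *Fosl2* and *Fosb* divided by those of *Fos* in the same library (marker shape, replicate; VEH, vehicle; SPR, spironolactone; PRD, prednisolone). *Jun* to *Fos* falls into 3 separate ranges, lowest with prednisolone (0.616 to 0.645), whereas *Fosb* to *Fos* overlaps between all groups.

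Among 22 other genes of basic leucine zipper partners, all tested, 0 were called with prednisolone against vehicle (10 at an unadjusted edgeR *P* under 0.05, 8 of them lower) and 0 with spironolactone (8, of which 7 lower). The shares of all genes tested at that unadjusted *P* were 14.2% and 9.29%. The smallest adjusted values with prednisolone were those of *Ddit3*, a stress-induced C/EBP relative, at -0.48 ± 0.11 (edgeR adjusted *P* = 0.0502) and *Mafk*, at -0.53 ± 0.13 (edgeR adjusted *P* = 0.0624). With spironolactone they were those of *Nfe2l2*, the oxidative stress factor NRF2, at -0.32 ± 0.08 (edgeR adjusted *P* = 0.174) and *Jdp2*, a JUN dimerization partner, at -0.52 ± 0.14 (edgeR adjusted *P* = 0.181). Between the drugs 2 were called, against 5.17% of all genes tested. *Batf3*, a factor of dendritic cells, was higher with spironolactone (6.74 to 9.83 CPM, and 3.8 to 5.01 with prednisolone; 0.93 ± 0.20, edgeR adjusted *P* = 0.0187), and *Creb5* was lower (13.96 to 16.5 and 21.9 to 24.7 CPM; -0.60 ± 0.11, edgeR adjusted *P* = 0.00952).

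Of 24 genes of kinases and SRF or ELK factors upstream of AP-1, 23 were tested. *Map3k8*, the kinase TPL2 that links Toll-like receptors to ERK, fell with prednisolone (51.0 to 56.2 CPM in vehicle, 31.3 to 38.3 with prednisolone; -0.61 ± 0.12, edgeR adjusted *P* = 0.0192) and was the 1 called, against 1.76% of all genes tested. The list's median was 0.039 with prednisolone and -0.10 with spironolactone, with 0 called with the latter (3 at an unadjusted edgeR *P* under 0.05, against 9.29% of all genes tested). The smallest adjusted values with spironolactone were those of *Map3k8* (-0.33 ± 0.12, edgeR adjusted *P* = 0.379) and *Mapk8*, the kinase JNK1 that phosphorylates JUN (-0.30 ± 0.12, edgeR adjusted *P* = 0.488). Between the drugs 1 of 23 was called, against 5.17% of all genes tested, namely *Rps6ka3*, an ERK-activated kinase, lower with spironolactone (-0.44 ± 0.10, edgeR adjusted *P* = 0.0201).

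A list of 20 other immediate early and stress-induced genes, all tested, had 6 called lower with prednisolone, against 0.758% of all genes, and 0 called higher. In this comparison 17 were negative and 3 positive, namely *Egr2* (0.078 ± 0.14), *Egr3* (0.34 ± 0.16) and *Myc* (0.23 ± 0.11), none of them called. *Egr1* was at -0.049 ± 0.22. Of the 6 called, *Hspa1a* and *Hspa1b* encode heat-shock chaperones and are near-identical copies, so that reads may be split between them and their values are uncertain. The smallest adjusted values were those of *Ier5* (372 to 403 CPM in vehicle, 183 to 236 with prednisolone; -0.91 ± 0.11, edgeR adjusted *P* = 0.00116), *Hspa1a* (-0.50 ± 0.09, edgeR adjusted *P* = 0.0152), *Dusp1*, a phosphatase that switches off MAP kinases (-0.70 ± 0.15, edgeR adjusted *P* = 0.0295), and *Zfp36*, which destabilizes cytokine mRNA (-0.66 ± 0.14, edgeR adjusted *P* = 0.0337). The list's median was -0.30 with prednisolone and -0.23 with spironolactone, where 0 were called (6 at an unadjusted edgeR *P* under 0.05, all lower, against 9.29% of all genes tested). The smallest adjusted values with spironolactone were those of *Klf6* (-0.50 ± 0.11, edgeR adjusted *P* = 0.129) and *Dusp1* (-0.53 ± 0.15, edgeR adjusted *P* = 0.208). *Ier5* (0.75 ± 0.11, edgeR adjusted *P* = 0.00212), *Hspa1a* (0.60 ± 0.09, edgeR adjusted *P* = 0.00366) and *Hspa1b* were called higher with spironolactone than with prednisolone, against 2.38% of all genes tested. Over the list 8 of 20 were positive and 12 negative between the drugs, with a median of -0.079. The list includes genes known to be induced by cell dissociation, and what share digestion and sorting had in the AP-1 levels was not tested.

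Of 20 textbook target genes of AP-1, 19 were tested. With prednisolone 9 had a positive and 10 a negative log2 fold change (median -0.050), and 1 was called in each direction, against 1.76% of all genes tested called. With this drug *Vegfa*, an angiogenic factor, fell (74.7 to 91.4 CPM in vehicle, 25.7 to 52.3 with prednisolone; -1.02 ± 0.21, edgeR adjusted *P* = 0.0377) and *Mmp12*, the macrophage elastase, rose (559.7 to 580.4 and 925 to 1374 CPM; 0.94 ± 0.13, edgeR adjusted *P* = 0.00376). With spironolactone 15 of 19 were negative (median -0.29) and 0 were called (5 at an unadjusted edgeR *P* under 0.05, 4 of them lower, against 9.29% of all genes tested). The smallest adjusted values were those of *Vegfa* (-0.93 ± 0.21, edgeR adjusted *P* = 0.164) and *Fn1*, encoding fibronectin (-0.55 ± 0.16, edgeR adjusted *P* = 0.217). Between the drugs *Fn1*, *Mmp12*, *Cd44* and *Spp1* were called, all lower with spironolactone (against 2.79% of all genes tested; 13 of 19 negative, median -0.23), with changes from -1.12 ± 0.16 for *Fn1* to -0.58 ± 0.11 for *Cd44* (edgeR adjusted *P* = 0.00254 and 0.0122). The direction of these 4 genes between the drugs was opposite to that of *Jun* and *Atf3* and the same as that of *Fosl2* (-0.44, not called). A link between the direction of members and of target genes was not tested.

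**Figure D5:**
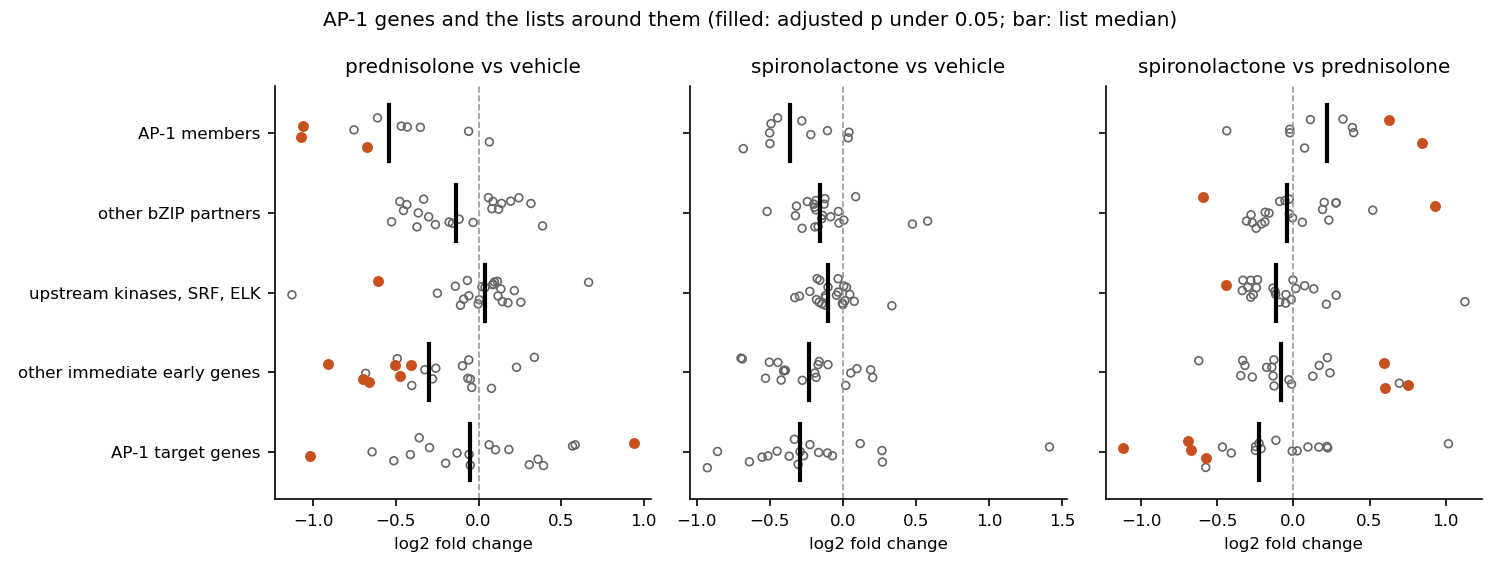
Points give the log2 fold change of each tested gene of the AP-1 family and of the 4 lists around it, filled where the adjusted *P* was under 0.05, and black bars give list medians. With prednisolone against vehicle, filled points lie below 0 except that of *Mmp12* among the target genes.

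The genes with the pattern most like that of *Fos* were *Klf6*, *Dnajb4*, *Tatdn2*, *Chka* and *Rasgef1b*, with Pearson's r of log2 CPM from 0.965 to 0.945 over the 9 libraries. Those most like *Fosl2* were *Nfkbie*, *Rab11fip1*, *Tnfsf9*, *Midn* and *Arl5b*, with r from 0.961 to 0.929. They are the highest 5 of 8651 genes with a mean of at least 10 CPM in each case, and the 9 libraries include the differences between groups, so that r is a description only.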

How the data were processed

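The authors' deposited count files give whole numbers per gene symbol, not normalized. Per the submitters' processing notes and the paper, reads from DNBseq libraries were aligned with HISAT2 2.2.1 to mm39 and counted with HTSeq 0.11.3. The strand setting and annotation release are not given in the sources used here. Lines naming no gene (17.2% to 21.8% of reads or pairs) were left out. The authors' own comparisons, made with DESeq2 1.32.0, hold fold changes and p-values and were not used.

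Genes were filtered with filterByExpr (minimum count 10, minimum total 15) and tested with edgeR 4.0.16 (glmQLFit, robust=TRUE, TMM) in R 4.3.3, after a test on simulated data. Alternatives used DESeq2 1.42.0, limma 3.58.1, other normalizations and filters, a replicate block and fits without each library. Same-numbered libraries were not taken as pairs. *P* values judge a difference against the spread between pools, an estimate that borrows from all genes tested. TPM used GENCODE exon lengths for 40303 of 50559 symbols (at least 91.0% of counts). The members and gene lists were chosen with earlier results of these data known. All members were named, and of each list those called (up to 4 with the smallest adjusted *P*) or otherwise the 2 with the smallest adjusted *P*, besides the 5 genes most like *Fos* and *Fosl2*. The length of the promoter window was chosen after a first look at the sequences. Protein sequences were not analysed here.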

Additional observations from a re-analysis of the deposited data

How the results depend on the processing

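Over the 10 alternatives of tool, normalization, filter and block and the 9 fits without 1 library, 505 of the values of the members kept direction and side of the threshold, 31 newly passed it, 12 lost it and 22 turned sign. The calls over the 3 comparisons numbered 5 among the members. They were 10 with DESeq2 on all 9 libraries, 14 with DESeq2 on 2 groups and 16 with edgeR without a filter beyond 1 count in total, and from 2 (without prednisolone replicate 2) to 7 (without prednisolone replicate 1) with 1 library left out. Genes called with prednisolone against vehicle (293) were 738, 690 and 1019 under these 3 settings and from 70 (without prednisolone replicate 2) to 833 (without vehicle replicate 1) with 1 library left out. Genes called with spironolactone against vehicle (3) were 293, 248 and 528, 0 with limma-voom or with edgeR at robust=FALSE (1587 and 1553 at an unadjusted *P* under 0.05), and with 1 library left out from 0 (vehicle replicate 3, spironolactone replicate 3 or prednisolone replicate 2 removed) to 30 (spironolactone replicate 2 removed). Genes called between the drugs (859) were 1739, 2147 and 1940, 1595 with edgeR on 2 groups, and from 211 (without prednisolone replicate 2) to 1877 (without vehicle replicate 1) with 1 library left out.

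Correlations of deviations from group means were -0.038 to 0.151 for same-numbered libraries and -0.168 to 0.044 for other libraries of different groups. Whether same-numbered libraries were pairs cannot be told from these values. The replicate block gave 8 genes with spironolactone against vehicle and turned *Fosb* between the drugs to 0.0087. With prednisolone it called *Fos* (edgeR adjusted *P* = 0.0137). There it gave lower adjusted values for *Jun* (0.000356), *Atf3* (0.000578) and *Fosb* (0.0564, not called). Limma-voom turned *Fosb* between the drugs to 0.015, *Fosl1* to 0.039 and *Batf* with spironolactone to -0.0077. With 1 library left out, sign changes were met for *Fosl1* with prednisolone (-0.29 to 0.30), with spironolactone (-0.11 to 0.27) and between the drugs (-0.26 to 0.33), for *Fosl2* with prednisolone (-0.24 to 0.087), and for *Batf* with spironolactone (-0.13 to 0.27). Between the drugs they were met for *Fos* (-0.029 to 0.26), *Fosb* (-0.23 to 0.17) and *Maff* (-0.12 to 0.32). The cause was not tested. *Fosl1* had the fewest counts of the members, 31 to 70 in a library.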
